A study of Mus musculus with 24 samples.

Results

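The genes described here are 7 genes of cholesterol synthesis and its control, Srebf2, Insig1, Hmgcs1, Idi1, Fdps, Sqle and Lss, in mouse brite adipocytes after knockdown of the long noncoding RNA Ctcflos. The rule names them and uses no measured value, but the set was drawn up with earlier results of these data known. The deposited table lists 52089 gene symbols in 168326 transcript entries, and the 7 genes hold 51 of these entries. Each gene was read from 1 entry, the RefSeq transcript with the highest mean level over the 24 libraries. The set carries the name of cholesterol synthesis and uptake, but none of the 7 genes encodes an uptake receptor. A wider list of 48 sterol genes, which includes the 7, was read beside them.

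Brite adipocytes are fat cells of white depots that take on a heat-producing programme. Preadipocytes of the stromal vascular fraction came from inguinal white fat of male 129SvEv mice of 5 to 6 weeks of age. All 4 groups were induced for 2 days, differentiated for 1 day with rosiglitazone, and then given a gapmer at 50 nM by reverse transfection. Gapmers are short antisense strands with modified, locked ends, through which RNase H cuts the matching RNA. The groups KD 24 h and KD 72 h received 1 gapmer against Ctcflos and were harvested 24 h or 72 h after transfection, and NC 24 h and NC 72 h received a nontargeting control gapmer and were harvested at the same times. Each group held 6 libraries. The study calls the replicates biological, and the labels do not say whether they came from separate mice or cultures, so the p-values measure the spread between these samples, which may be technical.

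Srebf2 encodes SREBP2, the transcription factor that raises genes of cholesterol synthesis and lipoprotein uptake when sterols in the endoplasmic reticulum membrane are scarce. INSIG1 retains the precursor of SREBP2, bound to its escort SCAP, in that membrane when sterols are plentiful. Insig1 is itself known as a target of SREBPs and, in fat cells, as a gene raised by PPARγ agonists such as rosiglitazone. The other members are enzymes that act in sequence, HMGCS1, IDI1 and FDPS in the mevalonate steps up to farnesyl diphosphate, and SQLE and LSS in the steps from squalene to lanosterol.

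SREBP2 is known to bind sterol regulatory elements next to CCAAT boxes, bound by NF-Y, and GC boxes, bound by Sp1, and these letters were searched in the 250 bases before the annotated start of the members. Windows were taken from RefSeq (GRCm38.p6) and were held for 5 of the 7 genes, all but Sqle and Fdps. Insig1 is shown because it had the largest difference between KD and NC of the members tested, and Hmgcs1 because it alone of the 5 held the searched sterol element; capitals mark matches on either strand, and both windows lie on the plus strand.
Insig1, chr5:28071162-28071411: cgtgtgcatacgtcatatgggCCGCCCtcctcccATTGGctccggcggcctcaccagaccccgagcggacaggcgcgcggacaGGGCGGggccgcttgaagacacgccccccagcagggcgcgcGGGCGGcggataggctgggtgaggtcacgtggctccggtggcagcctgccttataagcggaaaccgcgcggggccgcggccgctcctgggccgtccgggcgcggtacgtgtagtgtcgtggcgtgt
Hmgcs1, chr13:119690101-119690350: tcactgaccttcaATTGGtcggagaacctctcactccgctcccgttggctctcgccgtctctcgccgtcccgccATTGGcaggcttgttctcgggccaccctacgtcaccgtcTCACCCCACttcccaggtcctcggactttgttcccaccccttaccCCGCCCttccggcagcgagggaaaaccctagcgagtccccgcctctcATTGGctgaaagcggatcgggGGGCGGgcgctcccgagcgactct
The sterol element was searched as TCACNCCAC on both strands, which 346 of 32851 windows of the same length (1.05%) hold, and Hmgcs1 has it as TCACCCCAC from 137 to 129 bases before the start. The CCAAT box occurred in all 5 windows, each time on the minus strand as ATTGG, with 1 match in Insig1 and 3 in Hmgcs1, against 33.8% of all windows with at least 1. The GC box GGGCGG or its complement occurred 3 times in Insig1 and 2 times in Hmgcs1, against 32.7% of all windows with at least 1. A match is a description of letters and not of a bound site.

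Levels are given as scaled RPKM, which are the deposited RPKM (reads per transcript length and library depth) after a scaling between libraries, and differences as log2 of scaled RPKM + 0.1. Read totals recovered from the RPKM steps ran from 1391832 in KD 24 h replicate 6 to 5423840, at a median of 3945867. NC 72 h replicates 2 and 3 differed by less than counting noise (0.348 of it, against 1.94 for the next of 276 pairs) and were counted as 1 sample, so that NC 72 h had n = 5. Over 5285 genes outside the lists, 8 libraries deviated together from their group means, with 2 of every group among them (KD 24 h replicates 3 and 4, NC 24 h replicates 5 and 6, KD 72 h replicates 5 and 6, NC 72 h replicates 4 and 5). They are called the smaller cluster here and the other 16 the larger cluster. Of the 3 listed entries of Ctcflos, ENSMUST00000144256, the transcript the gapmer was designed against, stood at 59.4% of the control at 24 h (two-sided exact permutation p = 0.37) and at 8.37% at 72 h (p = 0.0065). AK079954 stood at 13.4% (exact p = 0.0065) and 13.2% (p = 0.0022), and NR_040321 at 25.5% (p = 0.045) and 18.8% (p = 0.0022). These percentages compare group means of the deposited RPKM, without the scaling. The 3 entries held 3 to 79 reads over all samples of a group. At 24 h the targeted entry held 8 reads over all KD samples, 3 of them at 0, and 12 over all NC samples. Its medians there were 0.08 RPKM in KD and 0.39 in NC. At 24 h a fall of the targeted transcript was thus not shown by its own entry, which held too few reads to measure its size. All 5 adipocyte markers (Adipoq, Fabp4, Plin1, Lpl, Cidec) were above 1 RPKM on average, whereas none of 4 endothelial and none of 5 epithelial markers was. Of 7 stromal markers 4 were above 1 RPKM, and of 5 macrophage markers 2 were (Csf1r and Lyz2).

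At 24 h no member was called between KD and NC, and at 72 h Insig1 and Fdps were lower in KD. A call is an adjusted p under 0.05 in the linear models of limma, with the Benjamini-Hochberg correction over all entries tested. Of the 7 members 5 passed the filter on low values at either time, and Srebf2 and Idi1 did not. At 24 h, 0 of the 5 were called by limma and 0 by limma-voom, against 22.8% of 11111 genes called in either direction (10.6% higher and 12.2% lower in KD). An unadjusted p under 0.05 by limma was reached by 1 of the 5, against 4147 of the 11111 genes. At 72 h, 0 were called higher and 2 lower of the 5, against 23.2% of 11512 genes (10.2% higher and 13.1% lower). The median log2 difference of the 5 was -0.14 at 24 h and -0.04 at 72 h, beside -0.02 and -0.01 over all genes tested.

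**Figure D1:**
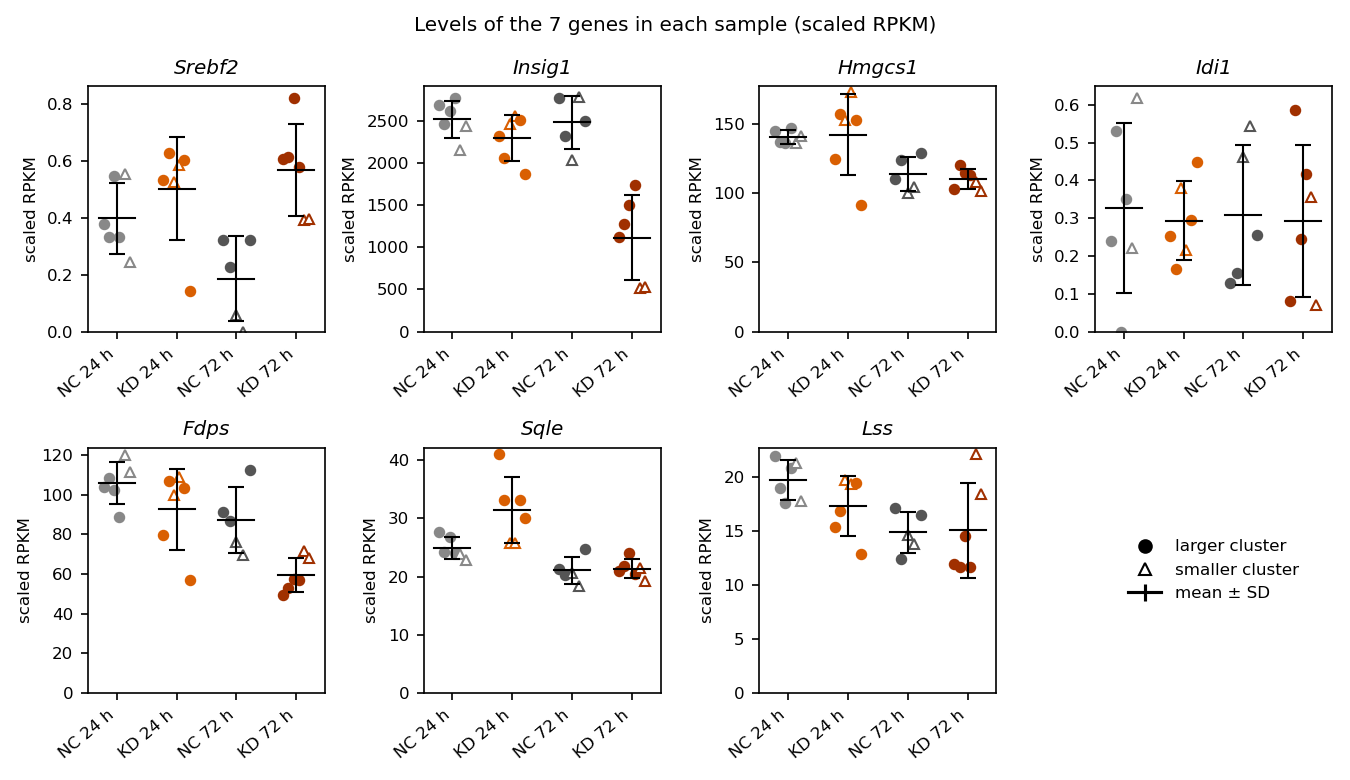
Level of each of the 7 genes in scaled RPKM (vertical axis, linear, from 0) in every sample of the groups NC 24 h, KD 24 h, NC 72 h and KD 72 h. Circles are samples of the larger cluster, triangles those of the smaller cluster, and bars give the mean ± SD; Insig1 in KD 72 h lies between 514 and 1740, under all NC 72 h samples, with the triangles lowest.

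Insig1 (NM_153526) was the member with the highest level and fell in KD at 72 h to 40.6% of the control by the log2 difference (44.8% by the group means). At 24 h its level ran from 1876 to 2560 scaled RPKM in KD (median 2392) and from 2160 to 2772 in NC (median 2536). The groups overlapped at 24 h, with 4 of the 6 KD samples inside the NC range. The 24 h difference was -0.14 ± 0.10 (SE; 95% interval -0.36 to 0.08; adjusted p = 0.344 by limma).

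In KD at 72 h the samples measured 1120, 1271, 1506, 1740, 514 and 526 scaled RPKM for Insig1 in replicates 1 to 6. The NC samples measured 2766 in replicate 1, 2325 in replicates 2 and 3, 2035 in replicate 4, 2789 in replicate 5 and 2505 in replicate 6. All 6 KD samples lay below all NC samples, and KD replicates 5 and 6 lay far below the other 4. The means were 1113 ± 505 (SD, n = 6) in KD and 2484 ± 316 (SD, n = 5) in NC, backed by 5332 to 19253 reads per KD library. The difference was -1.30 ± 0.29 (95% interval -1.92 to -0.68; adjusted p = 0.00573 by limma; two-sided exact permutation p = 0.00433), and of all genes tested at 72 h 8.6% did not overlap and were lower in KD.

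The fall of Insig1 had the same direction in both clusters of samples and a different size. Within the larger cluster it was -0.86 ± 0.13 (adjusted p = 0.000832 by limma) and within the smaller cluster, with 2 samples a group, -2.20 ± 0.15 (adjusted p = 9.57e-05); whether the 2 sizes differ was not tested. Adipocyte markers were also lower in KD at 72 h, with a summed level of 26178 to 35395 scaled RPKM in KD against 36585 to 48182 in NC. Most of this sum was Fabp4, at a mean of 37020 over all samples, so it says little of the other 4 markers. Of the 5 markers, Adipoq (-0.96, adjusted p = 0.00065), Fabp4 (-0.58, adjusted p = 0.0061) and Lpl (-0.48, adjusted p = 0.0157) were called lower by limma, and Plin1 (-0.46, adjusted p = 0.112) and Cidec (0.10, adjusted p = 0.59) were not. Of 4 stromal markers tested at 72 h Pdgfrb (0.59, adjusted p = 0.00785) and Cd34 (2.00, adjusted p = 0.00149) were called higher in KD, and of the macrophage markers Csf1r was called higher (1.23, adjusted p = 0.00309) and Lyz2 lower (-3.68, adjusted p = 0.000639). Over the whole lists the summed levels overlapped, at 657 to 834 scaled RPKM in KD and 353 to 992 in NC for stromal markers and at 5.48 to 10.5 and 7.80 to 29.8 for macrophage markers. Most of the stromal sum was Ly6a (mean 673.5 scaled RPKM), which was not called at 72 h (0.26, adjusted p = 0.395 by limma). The largest part of the macrophage sum was Lyz2 (mean 7.65). At 24 h Adipoq (-0.56, adjusted p = 0.0197) and Csf1r (1.21, adjusted p = 0.00675) were called by limma. The part of these markers in the Insig1 result was not tested, and in bulk RNA fewer cells of a type and less RNA per cell cannot be told apart.

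The entry of Srebf2 read here (NM_033218) was near the limit of detection in every group, with 12.5 to 65 reads over all samples of a group. Other entries of the gene held up to 17.6 reads per library on average, against 7.71 in this one. At 24 h the entry read here ran from 0.14 to 0.63 scaled RPKM in KD (median 0.56) and from 0.24 to 0.55 in NC (median 0.36), and the groups overlapped. The KD libraries at 72 h held 12, 10, 16, 11, 7 and 9 reads in replicates 1 to 6. The NC samples at 72 h held 4 reads in replicate 1, 3.5 as the mean of replicates 2 and 3, 1 in replicate 4, 0 in replicate 5 and 4 in replicate 6. In scaled RPKM the KD samples ran from 0.39 to 0.82 and the NC samples from 0 to 0.32, so the groups did not overlap, as for 6.04% of all genes tested at 72 h in the direction higher in KD.

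The entry did not pass the filter at 72 h and received no call. The two-sided exact permutation p of its scaled RPKM was 0.00433, unadjusted. Without the filter the log2 difference was 1.40 ± 0.50 (adjusted p = 0.115 by limma). Of 6 other Srebf2 entries, which share reads with this one, 3 were tested at 72 h, with differences of 0.72 to 0.80 and adjusted p of 0.0852 to 0.133, and 0 were called. At 24 h the same 3 differed by 0.35 to 0.45 (adjusted p = 0.21 to 0.404 by limma), and 0 were called. The filter and the call depended on single libraries. With NC 72 h replicate 1, 4, 5 or 6 left out the entry was tested, at 1.07 to 1.59, and it was called without NC 72 h replicate 1 or replicate 6 (adjusted p = 0.019 at the lowest) and not without replicate 4 or 5 (adjusted p = 0.0571 at the highest).

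Hmgcs1 (NM_145942), a synthase of the first mevalonate steps, did not differ detectably between KD and NC at either time. At 24 h it ran from 91.4 to 173 scaled RPKM in KD (median 152.5) and from 136 to 147 in NC (median 139). KD 24 h replicate 6, the library with the fewest reads, was the lowest at 91.4. The difference at 24 h was -0.01 ± 0.14 (95% interval -0.30 to 0.28; adjusted p = 0.959 by limma), and it was 0.11 without that library. At 72 h the level ran from 101 to 120 in KD (median 110) and stood in NC at 110, 123, 99.999, 104 and 129, with a difference of -0.04 ± 0.09 (95% interval -0.24 to 0.16; adjusted p = 0.795).

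Fdps (NM_134469), the synthase of farnesyl diphosphate, fell in KD at 72 h to 68.5% of the control by the log2 difference (68.1% by the group means). At 24 h it ran from 56.9 to 109 scaled RPKM in KD (median 101) and from 88.9 to 120 in NC (median 106), with a difference of -0.22 ± 0.15 (95% interval -0.55 to 0.10; adjusted p = 0.301 by limma). The KD samples at 72 h measured 49.6, 53.1, 57.6, 56.7, 71.5 and 68.0 in replicates 1 to 6. The NC samples measured 91.0 in replicate 1, 86.6 in replicates 2 and 3, 76.3 in replicate 4, 69.7 in replicate 5 and 112 in replicate 6. KD replicate 5 lay above the lowest NC sample, and the other 5 KD samples lay below all NC samples. The means were 59.4 ± 8.57 (SD, n = 6) and 87.2 ± 16.4 (SD, n = 5), and the difference was -0.55 ± 0.13 (95% interval -0.83 to -0.26; adjusted p = 0.0101 by limma; exact permutation p = 0.00433).

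The call for Fdps rested on the larger cluster and on the scaling. Within the larger cluster the difference was -0.83 ± 0.11 (adjusted p = 0.00040 by limma), with KD at 49.6 to 57.6 and NC at 86.6 to 112. Within the smaller cluster it was -0.06 ± 0.14 (adjusted p = 0.82), with KD at 68.0 to 71.5 and NC at 69.7 to 76.3. In the deposited RPKM without scaling the difference for Fdps was -0.29 (adjusted p = 0.151) and the call was lost, whereas Insig1 at -1.04 (adjusted p = 0.00704) kept its call. The scaling moved the median of all entries at 72 h by 0.25 on the log2 scale, and 45.5% of calls were higher in KD with it and 80.9% without it.

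**Figure D2:**
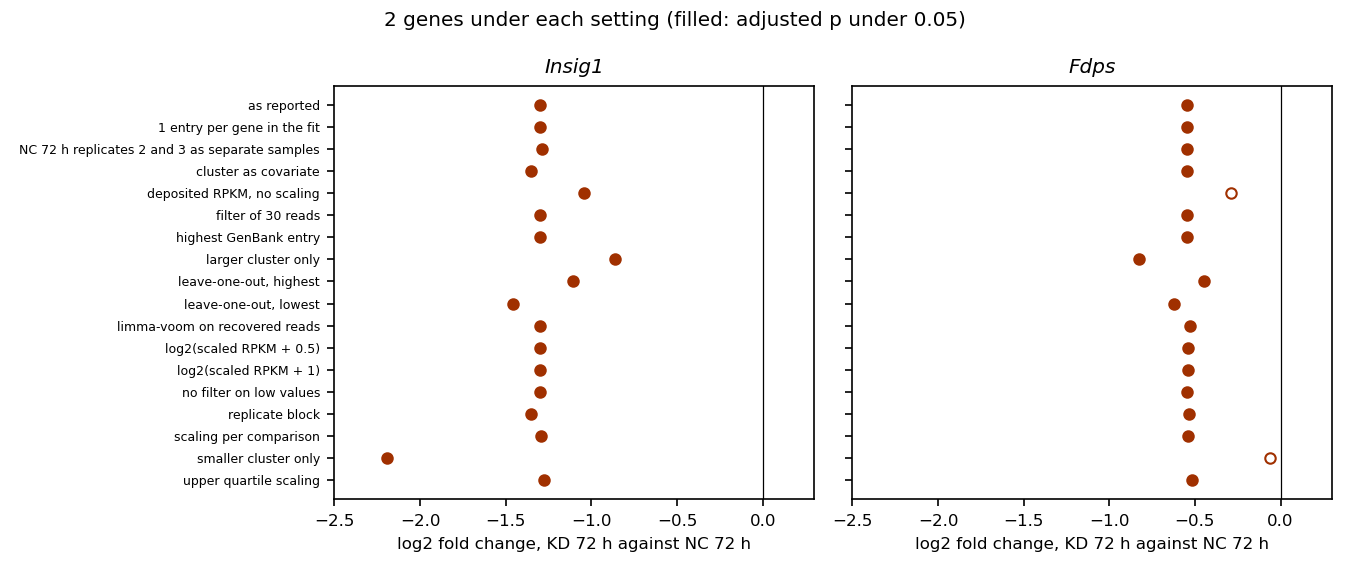
Log2 difference between KD 72 h and NC 72 h (horizontal axis) of Insig1 and Fdps under each processing alternative (vertical axis), filled where the adjusted p was under 0.05. Insig1 lies between -2.20 and -0.86 and is filled throughout, whereas Fdps is open for the deposited RPKM (-0.29) and for the smaller cluster (-0.06).

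Idi1 (NM_145360), which interconverts the isoprene units that FDPS joins, was barely detected. No sample held more than 8 reads, and the level ran from 0 to 0.62 scaled RPKM over all samples. Group means were 0.33 ± 0.23 in NC 24 h, 0.29 ± 0.11 in KD 24 h, 0.31 ± 0.19 in NC 72 h and 0.29 ± 0.20 in KD 72 h (SD). A difference in Idi1 was not detectable at this depth, and none of its 6 entries passed the filter.

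Sqle (NM_009270), the squalene epoxidase, was higher on average in KD at 24 h without a call. Its level at 24 h ran from 25.7 to 41.0 scaled RPKM in KD (median 31.5) and from 22.9 to 27.6 in NC (median 24.1). Of the 6 KD samples 4 lay above all NC samples, and the other 2, replicates 3 and 4, belong to the smaller cluster. The difference was 0.32 ± 0.13 (95% interval 0.04 to 0.60; p = 0.0265, adjusted p = 0.0878 by limma; exact permutation p = 0.0173, unadjusted). With the cluster as a covariate the same difference of 0.32 was called (adjusted p = 0.0432 by limma), and it was also called without KD 24 h replicate 4 (adjusted p = 0.0498). At 72 h the level ran from 19.3 to 24.0 in KD (median 21.3) and stood in NC at 21.4, 20.2, 20.7, 18.4 and 24.7, with a difference of 0.02 ± 0.11 (95% interval -0.21 to 0.25; adjusted p = 0.908).

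Lss (NM_146006), which closes the sterol rings to lanosterol, was not called in either KD comparison. At 24 h it ran from 12.9 to 19.8 scaled RPKM in KD (median 18.2) and from 17.6 to 22.03 in NC (median 19.96), a difference of -0.20 ± 0.14 (95% interval -0.49 to 0.09; adjusted p = 0.299 by limma). At 72 h the KD samples measured 12.0, 11.7, 14.6, 11.7, 22.2 and 18.5 in replicates 1 to 6, and the NC samples 17.1, 12.5, 14.6, 13.9 and 16.5. The 2 highest samples of KD at 72 h were those of the smaller cluster, in which Insig1 was lowest. The difference at 72 h was -0.02 ± 0.18 (95% interval -0.41 to 0.37; adjusted p = 0.95).

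**Figure D3:**
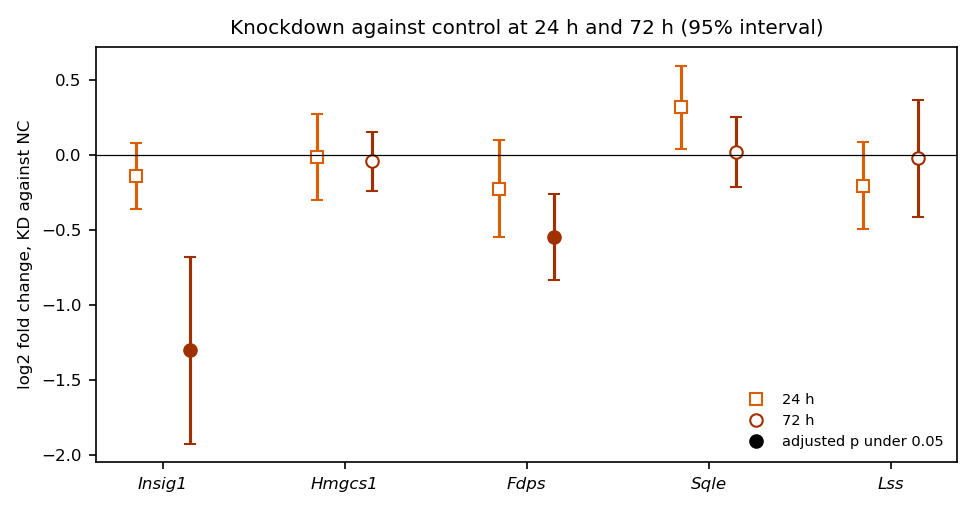
Log2 difference between KD and NC (vertical axis) with its 95% interval for the 5 members tested (horizontal axis), at 24 h (squares) and at 72 h (circles), filled where the adjusted p was under 0.05. Insig1 (-1.30) and Fdps (-0.55) at 72 h are filled, and all points at 24 h are open.

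The change of the knockdown effect from 24 h to 72 h was tested by an interaction term over all 4 groups. Of 6 members tested, 0 were called by limma and 0 by limma-voom, against 0.252% of 12680 genes called by limma. An unadjusted p under 0.05 by limma was reached by 2 of the 6, against 1564 of the 12680 genes. Insig1 had a log2 difference between the effects of -1.16 ± 0.32 (adjusted p = 0.134 by limma), and Srebf2 of 1.17 ± 0.52 (adjusted p = 0.373). For Fdps it was -0.32 ± 0.21 (adjusted p = 0.575), and for Sqle -0.30 ± 0.16 (adjusted p = 0.486). The fall of Insig1 and Fdps at 72 h is thus not shown to differ from the effect at 24 h. Within the smaller cluster alone Insig1 was called (-2.33 ± 0.18, adjusted p = 9.07e-05 by limma). In the fit of both clusters together, 60.5% of all calls were positive with the scaling and 96.1% in the deposited RPKM.

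Between the control groups, Hmgcs1 and Lss were lower at 72 h than at 24 h. All 5 members tested had a negative difference in NC, at a median of -0.29 beside 0.01 over all genes, and 2 of the 5 were called lower, against 9.26% of 11237 genes called (4.83% higher and 4.42% lower). Hmgcs1 ran from 136 to 147 scaled RPKM in NC 24 h and from 99.999 to 129 in NC 72 h, with a log2 difference of -0.31 ± 0.08 (adjusted p = 0.0209 by limma). Lss ran from 17.6 to 22.03 in NC 24 h and from 12.5 to 17.1 in NC 72 h, with a difference of -0.41 ± 0.12 (adjusted p = 0.0409). For both genes the groups did not overlap (exact permutation p = 0.00216, the smallest this design gives), as for 3.87% of all genes in that direction.

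Fdps differed by -0.29 ± 0.12 (adjusted p = 0.143 by limma) between NC 72 h and NC 24 h, Sqle by -0.24 ± 0.10 (adjusted p = 0.166) and Insig1 by -0.03 ± 0.09 (95% interval -0.22 to 0.16; adjusted p = 0.90). The mean of Insig1 in the controls was 2522 ± 220 scaled RPKM (SD, n = 6) at 24 h and 2484 ± 316 (SD, n = 5) at 72 h. The calls for Hmgcs1 and Lss were lost by limma within the larger cluster (-0.23, adjusted p = 0.107, and -0.38, adjusted p = 0.16) and within the smaller (-0.44, adjusted p = 0.0683, and -0.45, adjusted p = 0.257). With the replicate number as a block they were also lost (adjusted p = 0.0546 for Hmgcs1 and 0.0521 for Lss). Hmgcs1 kept its call in 12 of 12 fits that left out 1 library. Lss lost its call without NC 24 h replicate 1, 2, 4 or 5 or NC 72 h replicate 4 or 5 (adjusted p = 0.0662 to 0.0842 by limma), and Fdps gained one without NC 72 h replicate 6 (adjusted p = 0.0342). The 72 h controls also serve the 72 h knockdown comparison, so the 2 sets of values share samples.

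The wider list of 48 sterol genes was read by the same rule. At 24 h, 2 of 45 tested genes were called higher and 3 lower in KD, against 10.6% higher and 12.2% lower of all genes. Soat1, which esterifies cholesterol, rose by 1.28 ± 0.16 (adjusted p = 0.000232 by limma), from 23.4 to 35.9 scaled RPKM in NC to 55.8 to 103 in KD. Faf2, which acts in protein degradation at the endoplasmic reticulum, rose by 0.45 (adjusted p = 0.0206). Lrp1, an endocytic receptor, fell by 0.78 (adjusted p = 0.0101), Nsdhl, an enzyme after lanosterol, by 0.56 (adjusted p = 0.0282), and Scarb1, the HDL receptor, by 0.42 (adjusted p = 0.0319). The calls of Nsdhl (5 of 12 fits, adjusted p up to 0.0606) and Scarb1 (6 of 12 fits, adjusted p up to 0.0722) were lost in fits by limma without 1 library. No gene of the mevalonate steps (7 tested) and none of the squalene and lanosterol steps (3 tested) was called at 24 h.

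At 72 h, 3 of 45 tested genes of the list were called higher and 7 lower in KD, Insig1 and Fdps among the latter. Of all genes 10.2% were called higher and 13.1% lower, so the share of calls in the list was near the background. In the mevalonate steps 3 of 7 tested genes were called lower and 0 higher. They were Fdps, Acat2, a thiolase that makes acetoacetyl-CoA (-0.75 ± 0.11, adjusted p = 0.00046 by limma), and Pmvk, which phosphorylates phosphomevalonate (-0.34 ± 0.11, adjusted p = 0.0406). The mevalonate steps did not fall as a whole. Their 7 differences ran from -0.75 to 0.48 at a median of -0.04, with 3 above 0 and 4 below. Acat2 did not overlap between the groups (as 8.6% of all genes in that direction), with 40.2 to 59.5 scaled RPKM in KD and 73.1 to 86.8 in NC. In the sensing group 2 of 6 were lower, Insig1 and the SREBP protease gene Mbtps2 (-0.86 ± 0.26, adjusted p = 0.0291), whose KD libraries held 7 to 20 reads.

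After lanosterol 1 of 9 tested genes was lower and 1 higher in KD at 72 h. Nsdhl fell by 1.03 ± 0.18 (adjusted p = 0.00104 by limma), with 12.8 to 26.0 scaled RPKM in KD and 30.5 to 39.8 in NC, and Hsd17b7, which acts at the same stage, rose by 0.52 ± 0.11 (adjusted p = 0.00421), with 17.3 to 20.6 in KD and 11.9 to 15.2 in NC. Neither gene overlapped between the groups, as for 8.6% of all genes lower and 6.04% higher in KD. Among 10 tested genes of uptake and transport 0 rose and Scarb1 fell (-0.75 ± 0.16, adjusted p = 0.00477). Scarb1 differed by -1.08 (adjusted p = 0.000198 by limma) within the larger cluster and by -0.18 (adjusted p = 0.622) within the smaller. The calls of Acat2 (-0.40, adjusted p = 0.113), Nsdhl (-0.50, adjusted p = 0.119) and Hsd17b7 (0.55, adjusted p = 0.109) were also lost by limma within the smaller cluster. Of 6 tested genes of efflux and esterification Abcg1, which exports sterols, rose by 1.90 ± 0.40 (adjusted p = 0.00416). Its KD samples measured 164, 192, 174, 223, 50.6 and 46.9 scaled RPKM in replicates 1 to 6 and its NC samples 20.6 to 46.3, so the groups did not overlap. The smaller cluster was lowest in KD and also in NC at 72 h, where it measured 20.6 and 24.8 against 36.6 to 46.3 in the larger. Rnf145, a ubiquitin ligase, rose by 0.79 ± 0.27 (adjusted p = 0.047). In fits by limma without 1 library the calls of Pmvk (9 of 12 fits, adjusted p up to 0.101), Rnf145 (9 of 12, up to 0.113) and Mbtps2 (6 of 12, up to 0.072) were lost. Without the scaling 19 genes of the list were called at 72 h, and Pmvk (-0.09, adjusted p = 0.612) and Mbtps2 (-0.63, adjusted p = 0.103) lost their calls.

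In the control time comparison 9 of 45 tested genes of the list were called lower at 72 h and 1 higher, against 4.42% and 4.83% of all genes. The calls went from 10 to 3 within either cluster and to 5 with the replicate number as a block. The 9 included 3 of 7 genes of the mevalonate steps, Hmgcs1, Mvk, the mevalonate kinase (-0.68 ± 0.18, adjusted p = 0.0268 by limma), and Pmvk (-0.42 ± 0.10, adjusted p = 0.0133). After lanosterol 4 of 9 were lower, Cyp51 (-0.55 ± 0.09, adjusted p = 0.00117), Dhcr7 (-0.43), Nsdhl (-0.42) and Hsd17b7 (-0.40), and all 9 had a negative difference. Soat1 was the gene that rose (0.42 ± 0.12, adjusted p = 0.0352). In fits by limma without 1 library Hsd17b7 lost its call in 9 of 12 (adjusted p up to 0.10), Mvk in 6, Soat1 in 5 and Dhcr7 in 4. The median of the list was -0.16 over 45 genes, beside 0.01 over all genes. By the interaction term, 0 of 47 genes of the list were called by limma or limma-voom. An unadjusted p under 0.05 by limma was reached by 5 of the 47, against 1564 of 12680 genes.

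**Figure D4:**
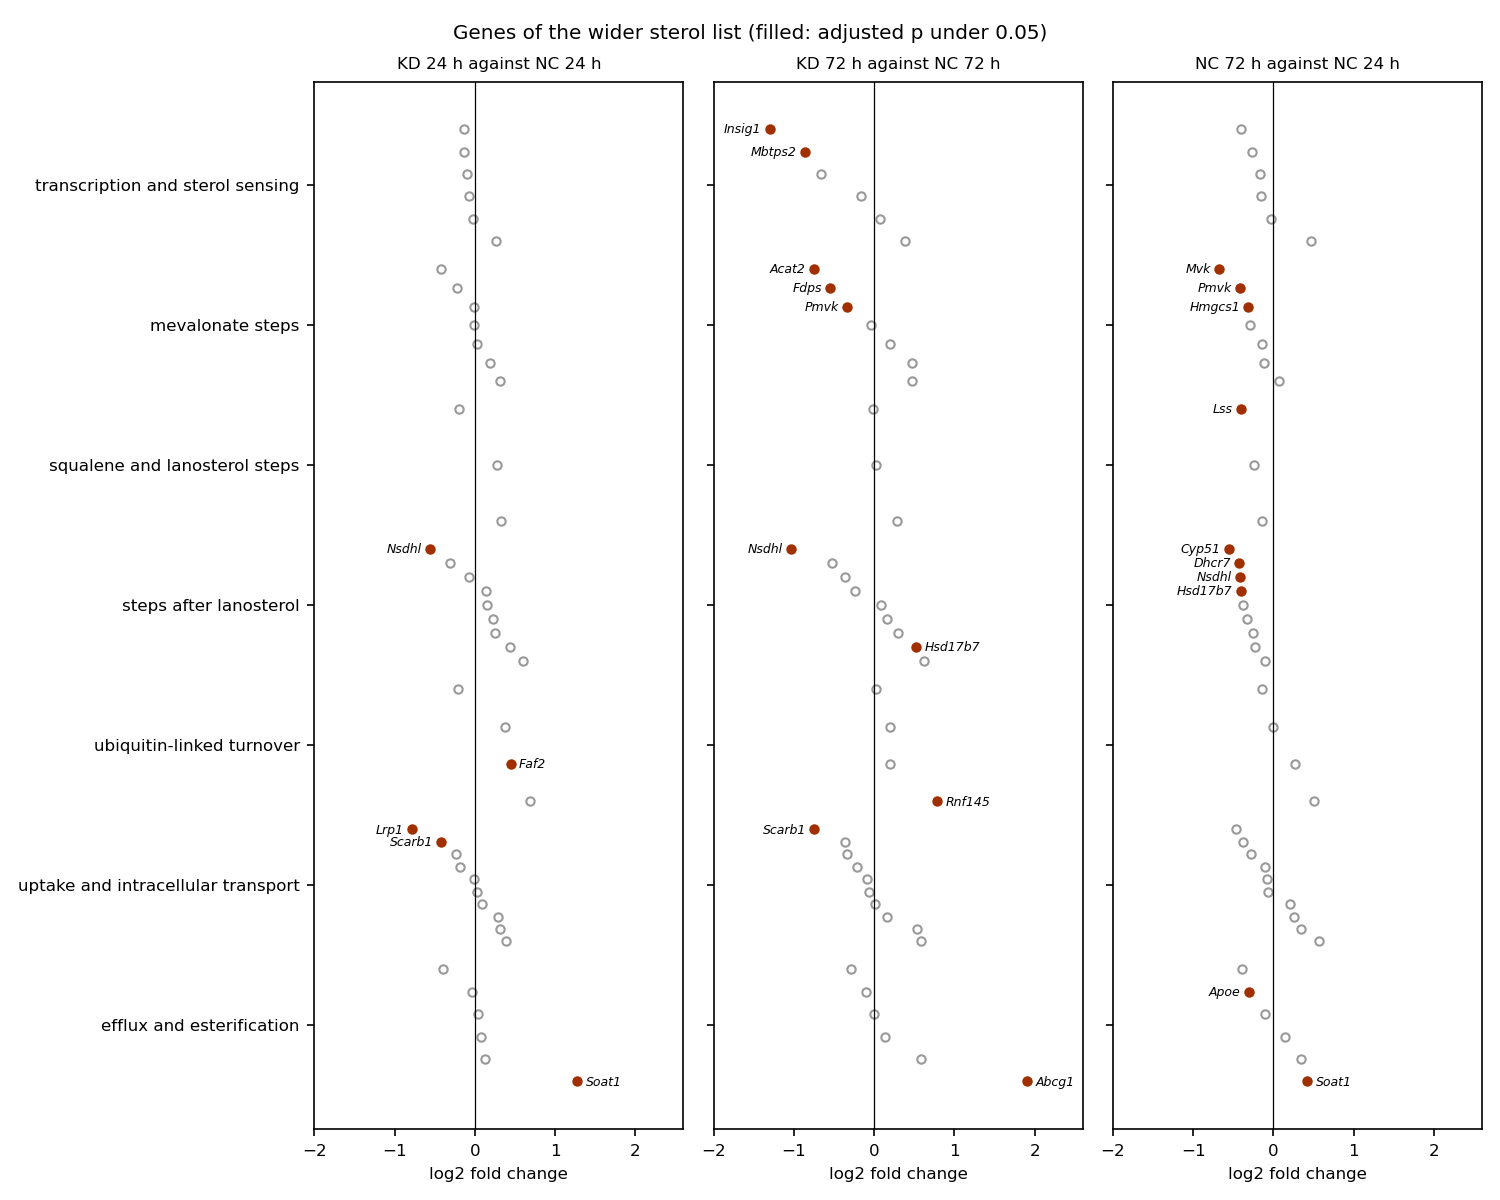
Log2 difference (horizontal axis) of each tested gene of the wider list, grouped by step of the pathway (vertical axis), for KD against NC at 24 h and at 72 h and for NC 72 h against NC 24 h. Filled, named points had an adjusted p under 0.05, with 5 of 45 genes at 24 h, 10 at 72 h and 10 in the control comparison.

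Transcript entries of 1 gene overlap and share reads, so they are not independent measurements. All 5 entries of Insig1 were called lower at 72 h, with differences from -1.31 to -0.99, and so were the 4 tested of 5 entries of Fdps, from -0.55 to -0.54. None of the 8 entries of Hmgcs1 and none of the 5 tested entries of Sqle was called at 72 h. Of 9 tested entries of Lss 1 was called, AK014742 with a difference of -1.14 (adjusted p = 0.0291 by limma) and 23.3 reads per sample on average. At 24 h no entry of any member was called, of 34 tested.

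The members varied together in part over the 23 samples. Hmgcs1 and Fdps had a Pearson correlation of log2 levels of 0.76 and Fdps and Lss of 0.72, and after subtraction of group means of 0.72 and 0.69. These were the highest values of all pairs of members. Sqle correlated with Hmgcs1, Fdps and Lss at 0.456, 0.335 and 0.246 over all samples. After subtraction of group means these values were -0.052, -0.003 and -0.080. Fdps and Insig1 correlated at 0.56 over all samples and at -0.22 after that subtraction. Lss and Insig1 correlated at 0.07 over all samples and at -0.51 after subtraction of group means. These points share groups, clusters and library depth, and the values are a description. Among 5294 other genes with a mean of at least 5 RPKM, the 5 whose level followed the mean of the 7 standardised members most closely over the 23 samples were Trex1 (r = 0.87), Aldh1a7 (0.86), Dpep1 (0.84), Rad9a (0.84) and Gsn (0.83). All 5 were lower on average at 72 h than at 24 h in KD and in NC, Trex1 at 60.4 and 79.9 scaled RPKM in KD and NC at 24 h and 24.8 and 27.3 at 72 h. The mean of the members gave full weight to the scarcely read Srebf2 (at most 16 reads in a sample) and Idi1 (at most 8). How closely these genes followed the other members alone was not tested.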

How the data were processed

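Primary brite adipocytes were analysed in 24 libraries, grouped and numbered by their titles. Per the labels and methods, the authors prepared them by bulk RNA barcoding and sequencing of transcript 3′ ends, aligned reads to the NCBI Reference Sequence Database and used DESeq2 in the Genomatix suite. The build, versions, strand handling and filters of these libraries are not given in the sources used here. The authors deposited RPKM for 168326 entries, and 0 columns were left unused. As 3′ ends were read, dividing by transcript length can shift levels between genes.

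Reads were recovered from RPKM steps; 93.0% to 93.7% of low values per library were whole multiples within 0.02. In NC 72 h replicate 6 the recovered unit was taken as 2 steps, since 19.8% of its multiples were odd. Depth statements cover counting error only. RPKM were scaled over all samples by a trimmed mean of log ratios (30% of ratios, 5% of levels; factors 0.807 to 1.09). Entries with the equivalent of 10 reads of the median library in as many samples as the smaller group holds were fitted as log2(scaled RPKM + 0.1) with lmFit and eBayes (trend) in limma 3.58.1 (R 4.3.3), two-sided. This scale understates the change of low genes. Each comparison was fitted on its own groups, and the interaction on all 4 groups. Beside the fits of 2 groups, single genes were tested by exact permutation, two-sided and unadjusted. These tests used scaled RPKM, and deposited RPKM for the Ctcflos entries. Of 48 listed genes, Msmo1 was found as Sc4mol, and the marker Adgre1 as Emr1.

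The members and lists were chosen with earlier results of these data known. Named were all members and, per comparison, up to 5 called list genes with the largest rise and 5 with the largest fall; the most alike genes were 5 by Pearson correlation. Hsd17b7 in the control comparison was named after its values were seen. Alternatives were the pseudocount, filter, scaling, entry, replicate block, clusters, limma-voom and each library left out. Models were tested on simulated data. Some genes of the pathway are not reported here.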

Additional observations from a re-analysis of the deposited data

Results flagged for a closer look

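In 84 groups of 21 named genes, each highest and lowest sample was set against the spread of its group by Dixon's 95% criterion, which chance meets in about 4.2 of 84 groups; 2 samples met it. KD 24 h replicate 6, the library with the fewest reads, was the lowest of 6 for Srebf2 (0.14 scaled RPKM, 1 read). NC 24 h replicate 1 was the lowest of 6 for Cyp51 (26.6 scaled RPKM).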

How the results depend on the processing

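Of the members, the calls of Insig1 and Fdps at 72 h were kept in all 12 fits that left out 1 library, at -1.46 to -1.11 and at -0.62 to -0.45. The count of called members ran from 0 to 1 at 24 h, 2 to 3 at 72 h, 0 to 0 for the change of effect and 1 to 3 in the control comparison over these fits, and that of list genes from 3 to 8, 7 to 11, 0 to 1 and 5 to 10. Against 0, 2, 2 and 0 called members at 24 h, at 72 h, in the control comparison and for the change of effect, the covariate gave 1 at 24 h, the deposited RPKM 1, the highest Ensembl entry 0 and the smaller cluster 1 at 72 h, the Ensembl entry 1, no filter 1, the larger cluster 0 and the smaller cluster 1 in the control comparison, and the smaller cluster 1 for the change of effect. Against 5, 10, 10 and 0 list genes, the covariate and the deposited RPKM gave 8 each, the Ensembl entry 0, no filter 3 and the smaller cluster 1 at 24 h, the deposited RPKM 19, the Ensembl entry 2 and the smaller cluster 4 at 72 h, the Ensembl entry 4, the larger and the smaller cluster 3 each and no filter 6 in the control comparison, and the covariate, the deposited RPKM and the larger cluster 1 each and the smaller cluster 4 for the change of effect. Fewer genes have a tested Ensembl entry (2 members at 72 h); otherwise the cause was not tested. Scaling per comparison and the GenBank entry were chosen after seeing the data.

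Replicate numbers did not pair the samples, with mean correlations of deviations of -0.09 at 24 h, 0.04 at 72 h and 0.05 between the controls. With the replicate block the calls over all entries went from 11754 to 8668 at 24 h, 12134 to 10803 at 72 h, 4826 to 4056 between the controls and 114 to 70 for the change of effect. Called members went from 2 to 0 between the controls, and list genes from 5 to 2 at 24 h and from 10 to 5 between the controls, and Lss at 72 h stood at 0.0157.

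Of 690 values of named genes under the alternatives 593 kept sign and side of the threshold of 0.05. A further 63 moved above the threshold, 6 moved under it and 28 changed sign. For values as a ratio of means this threshold was set on the exact permutation p, which is unadjusted, and for the others on the adjusted p. Ratios of means under it, as for Sqle at 24 h and between the controls, are therefore not calls. Of the 28, Mbtps2 at 72 h had a call that was lost, at 0.126 in its highest GenBank entry, and the others had none in either setting. In the deposited RPKM Hmgcs1 stood at 0.0607 at 24 h, 0.215 at 72 h and 0.154 for the change of effect, and Lss at 0.234 at 72 h. In the smaller cluster Insig1 stood at 0.131 at 24 h and 0.0546 between the controls, Hmgcs1 at 0.232 at 24 h and 0.0336 at 72 h, Lss at 0.0091 at 24 h and 0.505 at 72 h, and Fdps at 0.0895 for that change. In the larger cluster Sqle stood at -0.0150 at 72 h and Hmgcs1 at 0.0325 for the change of effect. With 1 library left out Hmgcs1 ran from -0.0753 to 0.109 at 24 h, -0.0839 to 0.0075 at 72 h and -0.149 to 0.0349 for the change of effect, Insig1 from -0.0710 to 0.0427 between the controls, and Sqle from -0.0245 to 0.0805 and Lss from -0.140 to 0.0446 at 72 h. Hmgcs1 at 24 h stood at 0.0170 as a ratio of means, 0.0017 in limma-voom and 0.0048 with scaling per comparison. Lss at 72 h stood at 0.0214 with NC 72 h replicates 2 and 3 apart, 0.0015 with the covariate, 0.0166 as a ratio of means and 0.0058 with upper quartile scaling.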

Other observations

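At 72 h the 2 KD samples of the smaller cluster, replicates 5 and 6, stood apart in several sterol genes, and not in 1 direction. They were the lowest of 6 for Insig1 (514 and 526 scaled RPKM, against 1120 to 1740 in the other 4), for Abcg1 (50.6 and 46.9, against 164 to 223) and for Soat1 (31.7 and 31.7, against 69.0 to 119). They were the highest of 6 for Lss (22.2 and 18.5, against 11.7 to 14.6), for Fdps (71.5 and 68.0, against 49.6 to 57.6), for Nsdhl (26.0 and 20.52, against 12.8 to 18.1) and for Acat2 (59.5 and 52.3, against 40.2 to 45.9). In the 2 NC samples of the same cluster Insig1 measured 2035 and 2789, the lowest and the highest of the 5 controls. These 2 NC samples were the lowest of the 5 for Abcg1 (20.6 and 24.8, against 36.6 to 46.3). They were also the lowest for Fdps (76.3 and 69.7, against 86.6 to 112) and Acat2 (73.1 and 73.9, against 75.0 to 86.8). For Soat1, Lss and Nsdhl they were not. These genes were picked after their values were seen, and the pattern was not tested.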
